A study of Mus musculus with 14 samples.

Results

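Solute carrier (Slc) genes encode membrane proteins that move amino acids, ions, metals, sugars, nucleotides and metabolites across the cell surface and the membranes of organelles. The members were the protein-coding genes whose symbol began with Slc and a number in both deposited tables and whose level reached 1 TPM, a share of all transcripts of a library scaled for gene length, in at least 2 libraries of a table. Of 371 protein-coding carrier symbols found in both tables, 210 met this rule, out of 35389 gene identifiers in one table and 35341 symbols in the other. They fell into 44 families and were sorted by family number into 28 amino acid carriers (Slc1, Slc6, Slc7 and Slc38), 34 mitochondrial carriers (Slc25), 15 metal carriers (Slc30 and Slc39) and 133 others. The other 161 symbols passed in neither table, and 43 of all 371 were listed at 0 in every library. Slc7a6os, Slc9a3r1, Slc9a3r2 and Slc4a1ap met the rule by their symbols but encode no carrier themselves, and Slc7a6os overlaps Slc7a6, so the values of that pair are uncertain. All of them are counted in the results of their families and classes.

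A growing mouse oocyte takes up amino acids through its own carriers and through gap junctions with the cumulus cells around it. Glycine taken up by the Slc6a9 carrier serves to hold cell volume in mouse oocytes and early embryos. Proteins of the Slc25 family sit in the inner membrane of mitochondria and exchange nucleotides, phosphate, amino acids and tricarboxylic acid cycle intermediates. Slc39 proteins bring zinc into the cytosol and Slc30 proteins carry it out of the cytosol, and the maturing mouse oocyte is known to accumulate zinc through Slc39a6 and Slc39a10.

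Polyadenylated RNA had been sequenced from mouse oocytes that overexpressed Rnaseh1, an enzyme that cuts the RNA strand of RNA:DNA hybrids, alone or with Supt6, a histone chaperone of elongating RNA polymerase II, or the fluorescent protein mCherry as the control. The 14 libraries formed 7 groups of 2. A first set held oocytes with a surrounded nucleolus (SN), the later and transcriptionally quiet state, with Rnaseh1 or mCherry, and oocytes with a non-surrounded nucleolus (NSN), the earlier and transcribing state, with Rnaseh1 or mCherry. A second set, called rescue in the labels, held Rnaseh1, Rnaseh1 plus Supt6, and mCherry, with no stage, and the labels give no strain, age or vector for either set. Separate animals behind the libraries of a group are not named in the labels, so p-values measure the spread between these libraries, which may be technical.

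For a look at the upstream sequence of carriers whose changes differed, the 250 bases before the annotated start are shown for 5 of them, from RefSeq on GRCm38.p6. Slc6a9 had the largest fall of all carriers in the rescue set and Slc7a9, a cystine and cationic amino acid carrier, rose. Slc7a11, the cystine/glutamate exchanger, is a textbook target of the amino acid response, and its Rnaseh1 and mCherry libraries overlapped in the rescue set. Slc30a3 and Slc30a1 belong to 1 zinc exporter family and changed in opposite directions. Each is written 5′ to 3′ on the strand of the gene, before the RefSeq start nearest to the GENCODE gene start. The windows of Slc6a9 and Slc7a9 lie inside the GENCODE bounds of those genes given below. Capitals mark the GC box (GGGCGG) in the Slc6a9 sequence, with none in that of Slc7a9, the amino acid response element core (TGATGNAA) in that of Slc7a11, and the metal response element core (TGCACNC or TGCGCNC) in those of Slc30a3 and Slc30a1, on either strand.
Slc6a9, chr4:117835008-117835257, plus strand: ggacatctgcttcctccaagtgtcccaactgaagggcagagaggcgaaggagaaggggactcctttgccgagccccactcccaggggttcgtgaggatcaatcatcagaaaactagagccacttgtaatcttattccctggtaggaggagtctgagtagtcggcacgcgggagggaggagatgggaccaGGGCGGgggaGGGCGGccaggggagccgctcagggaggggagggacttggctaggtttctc
Slc7a9, chr7:35448842-35449091, plus strand: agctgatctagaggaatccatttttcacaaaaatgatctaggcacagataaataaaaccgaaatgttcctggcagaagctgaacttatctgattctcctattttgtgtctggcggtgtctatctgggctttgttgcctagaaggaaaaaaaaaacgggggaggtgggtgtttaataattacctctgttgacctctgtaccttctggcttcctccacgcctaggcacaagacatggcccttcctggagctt
Slc7a11, chr3:50443614-50443863, minus strand: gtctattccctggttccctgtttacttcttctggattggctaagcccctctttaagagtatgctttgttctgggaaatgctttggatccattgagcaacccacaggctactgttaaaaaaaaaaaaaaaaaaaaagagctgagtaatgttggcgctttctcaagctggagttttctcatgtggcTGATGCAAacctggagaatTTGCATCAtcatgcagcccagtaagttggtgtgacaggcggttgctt
Slc30a3, chr5:31108245-31108494, minus strand: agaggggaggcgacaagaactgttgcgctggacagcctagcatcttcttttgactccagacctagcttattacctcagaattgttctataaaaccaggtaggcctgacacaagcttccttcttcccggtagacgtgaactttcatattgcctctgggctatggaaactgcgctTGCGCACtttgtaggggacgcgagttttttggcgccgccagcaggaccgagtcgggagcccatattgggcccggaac
Slc30a1, chr1:191906531-191906780, plus strand: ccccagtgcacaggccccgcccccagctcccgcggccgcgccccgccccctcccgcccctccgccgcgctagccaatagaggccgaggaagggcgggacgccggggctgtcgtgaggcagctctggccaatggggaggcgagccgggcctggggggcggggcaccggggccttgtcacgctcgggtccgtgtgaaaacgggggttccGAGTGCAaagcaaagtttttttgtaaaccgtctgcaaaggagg

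TPM keeps no read depth, so no counting error can be given, and a level is a share of the transcripts of its library. Rnaseh1 averaged 934 ± 437 TPM in the rescue Rnaseh1 libraries, 2144 ± 179 TPM with Supt6 and 119.5 ± 7.69 TPM with mCherry (SD, n = 2 each), and Supt6 averaged 24.6 ± 5.08 TPM where it was added and 3.21 ± 0.099 TPM with mCherry. Between 10036 and 12230 genes per library reached 1 TPM. All 12 oocyte markers did so in each of the 14 libraries, while Amh, Foxl2, Ptx3 and Tnfaip6, markers of cumulus and granulosa cells, were listed at 0 in all 14. Of the same list, Cyp19a1 stood at 12.98 to 46.13 TPM, Nr5a2 at 4.2 to 8.19 TPM and Kitl at 0.83 to 6.64 TPM. With Rnaseh1 against mCherry in the rescue set, 9 of the 12 oocyte markers fell and 1 rose, beside 46.2% and 20.3% of all genes. The oocyte markers ran from −4.31 for Mos to 1.88 for Dppa3 on the log2 scale, with a median of −0.95, beside −0.52 for all genes. Their sums were 18670 and 18880 TPM with Rnaseh1, 23680 and 24650 TPM with Rnaseh1 plus Supt6, and 20910 and 21980 TPM with mCherry. The part of this shift in the carriers' changes was not tested. The 15 markers of cumulus and granulosa cells summed to 45.5 to 54.3 TPM with Rnaseh1, 48.8 to 53.6 TPM with Rnaseh1 plus Supt6 and 52.0 to 54.7 TPM with mCherry in the rescue set, most of it Cyp19a1. In the first set their sums ran from 23.8 TPM in NSN Rnaseh1 replicate 2 to 56.3 TPM in NSN mCherry replicate 1. Libraries of the rescue set differed little within a group, with an SD of the replicate difference across carriers of 0.31 to 0.55 on the log2(TPM + 1) scale. In the first set that SD was 1.07 in SN mCherry and 0.99 in NSN Rnaseh1, against 0.54 and 0.61 in the other groups, so those 2 groups each hold libraries that stand apart.

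In the rescue set, most carriers were lower with Rnaseh1 than with mCherry. Of 204 carriers tested, 124 fell and 18 rose (limma on log2(TPM + 1), Benjamini-Hochberg adjusted p under 0.05 over all 12859 genes). That was 60.8% of the carriers falling and 8.82% rising, beside 46.2% of all genes tested falling and 20.3% rising. The median log2 fold change was −1.08 for the carriers and −0.52 for all genes, and 104 carriers fell by at least 1 on the log2 scale. All carriers together summed to 3168 and 3177 TPM in the Rnaseh1 libraries, 4843 and 5017 TPM with Rnaseh1 plus Supt6, and 6037 and 6334 TPM with mCherry. In such bulk libraries, fewer cells with a transcript and less of it per cell cannot be told apart. Settings of scale changed the split. With each library centred on its median, 86 carriers fell (42.2%) and 36 rose (17.6%), beside 30.3% and 33.4% of all genes. After quantile normalization 86 fell (42.2%) and 37 rose (18.1%), beside 30.8% and 32.8%. After removal of a trend with transcript GC content 71 fell (34.8%) and 27 rose (13.2%), beside 28.4% and 27.5%. The median of all genes was 0.06, 0.05 and −0.01 in these fits, and the carriers' median lay 0.55, 0.45 and 0.27 below it. Without mCherry replicate 1, 11 carriers rose in place of 18, beside 17.7% of all genes.

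**Figure D1:**
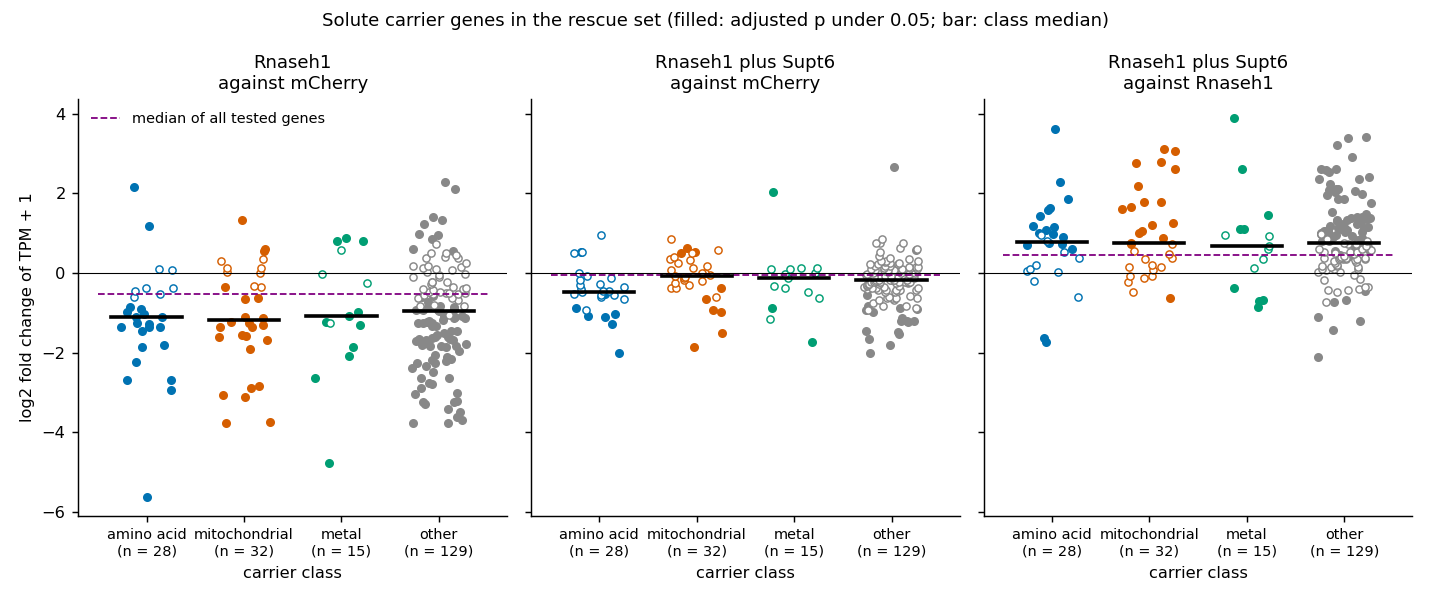
Log2 fold change of TPM + 1 for each tested carrier in the rescue set (vertical axis), by carrier class, in 3 comparisons named above the panels. Filled points passed an adjusted p of 0.05, black bars are class medians and the dashed line is the median of all tested genes; with Rnaseh1 against mCherry the class medians lie between −1.18 and −0.96, below the line at −0.52.

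Amino acid carriers fell in 19 of 28 cases (67.9%) and rose in 2 (7.14%), with a median log2 fold change of −1.10. After median centring 13 fell and 3 rose, after quantile normalization 12 and 3, and after removal of the GC trend 10 and 5. The Slc6 family, which couples uptake of neurotransmitters and amino acids to sodium, fell in all 11 of 11 tested members, with a median of −1.35. Its 11 members also lay below 0 after median centring and quantile normalization, with 7 falls in each, and 9 lay below 0 after removal of the GC trend, with 5 falls. The glycine carrier Slc6a9 (ENSMUSG00000028542.17, chromosome 4, 117834506 to 117875198, GRCm38) had 1.72 and 1.98 TPM with Rnaseh1, 34.6 and 33.4 TPM with Rnaseh1 plus Supt6, and 128 and 151 TPM with mCherry. The 3 groups did not overlap, and its log2 fold change with Rnaseh1 against mCherry was −5.62 ± 0.15 (SE, adjusted p = 6.9e-07). The taurine carrier Slc6a6 had 4.17 and 3.19 TPM with Rnaseh1, against 27.2 and 30.6 TPM with mCherry. That was a fall of −2.68 ± 0.19 (adjusted p = 2.1e-05). The proline and imino acid carriers Slc6a20b and Slc6a20a, near-identical copies whose reads may be divided wrongly between them, gave −2.70 and −1.29. The branched-chain amino acid carrier Slc6a15 fell less, by 0.90 (adjusted p = 0.0016).

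Among the 6 Slc38 members tested, 4 fell and none rose, against 2 falls and 0 rises after median centring, 1 and 0 after quantile normalization, and 2 and 1 after GC correction. Slc38a7, a glutamine carrier of the lysosome, had 0.38 and 0.69 TPM with Rnaseh1, against 9.42 and 12.2 TPM with mCherry (−2.94 ± 0.26, adjusted p = 5.3e-05). Slc38a9, the lysosomal carrier that reports arginine to mTORC1, had 5.55 and 6.03 TPM with Rnaseh1, against 13.2 and 13.9 TPM with mCherry (−1.10 ± 0.17, adjusted p = 0.0011). The Slc7 family, with Slc7a6os counted in it, was split, with 3 falls and 2 rises in 10 tested. Its median of −0.45 turned to 0.13 after median centring, 0.18 after quantile normalization and 0.51 after GC correction. Slc7a2, a cationic amino acid carrier, had 18.2 and 18.4 TPM with Rnaseh1 and 63.3 and 76.4 TPM with mCherry, and fell by 1.87 (adjusted p = 4.1e-05). Slc7a9 (ENSMUSG00000030492.16, chromosome 7, 35448796 to 35466036) went the other way. It had 105.8 and 91.5 TPM with Rnaseh1, 32.6 and 29.6 TPM with Rnaseh1 plus Supt6, and 22.48 and 19.97 TPM with mCherry. The Rnaseh1 libraries stood above all 4 others, and its log2 fold change was 2.16 ± 0.14 (adjusted p = 1.1e-05). Slc7a14, a lysosomal member of the family, rose by 1.17 ± 0.26 (adjusted p = 0.006), at 9.92 and 11.5 TPM with Rnaseh1 against 5.10 and 3.44 TPM with mCherry.

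Slc7a11 had 48.6 and 57.4 TPM with Rnaseh1, 42.2 and 49.0 TPM with Rnaseh1 plus Supt6, and 42.6 and 57.9 TPM with mCherry. The Rnaseh1 and mCherry libraries overlapped and the log2 fold change of 0.09 ± 0.18 did not pass (adjusted p = 0.68), though 0.67 after median centring and 0.58 after quantile normalization did pass, and GC correction gave −0.28. The y+L and L system carriers Slc7a6, Slc7a5 and Slc7a7 also did not pass, at −0.61, −0.52 and −0.37, while the L system carrier Slc7a8, at 0 and 0.07 TPM with Rnaseh1 against 3.55 and 4.27 TPM with mCherry, fell by 2.24 ± 0.24 (adjusted p = 0.00016). Their common heavy chain Slc3a2, which takes these light chains to the cell surface, had 29.8 and 23.0 TPM with Rnaseh1, 159 and 164 TPM with Rnaseh1 plus Supt6, and 183.4 and 183.8 TPM with mCherry. It fell by 2.76 ± 0.13 on the log2 scale (adjusted p = 3.4e-06), with no overlap between Rnaseh1 and the other groups. Slc38a2 and Slc1a5, widely used neutral amino acid carriers in other cells, stayed at or under 0.2 TPM in all 6 rescue libraries and did not enter the test.

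**Figure D2:**
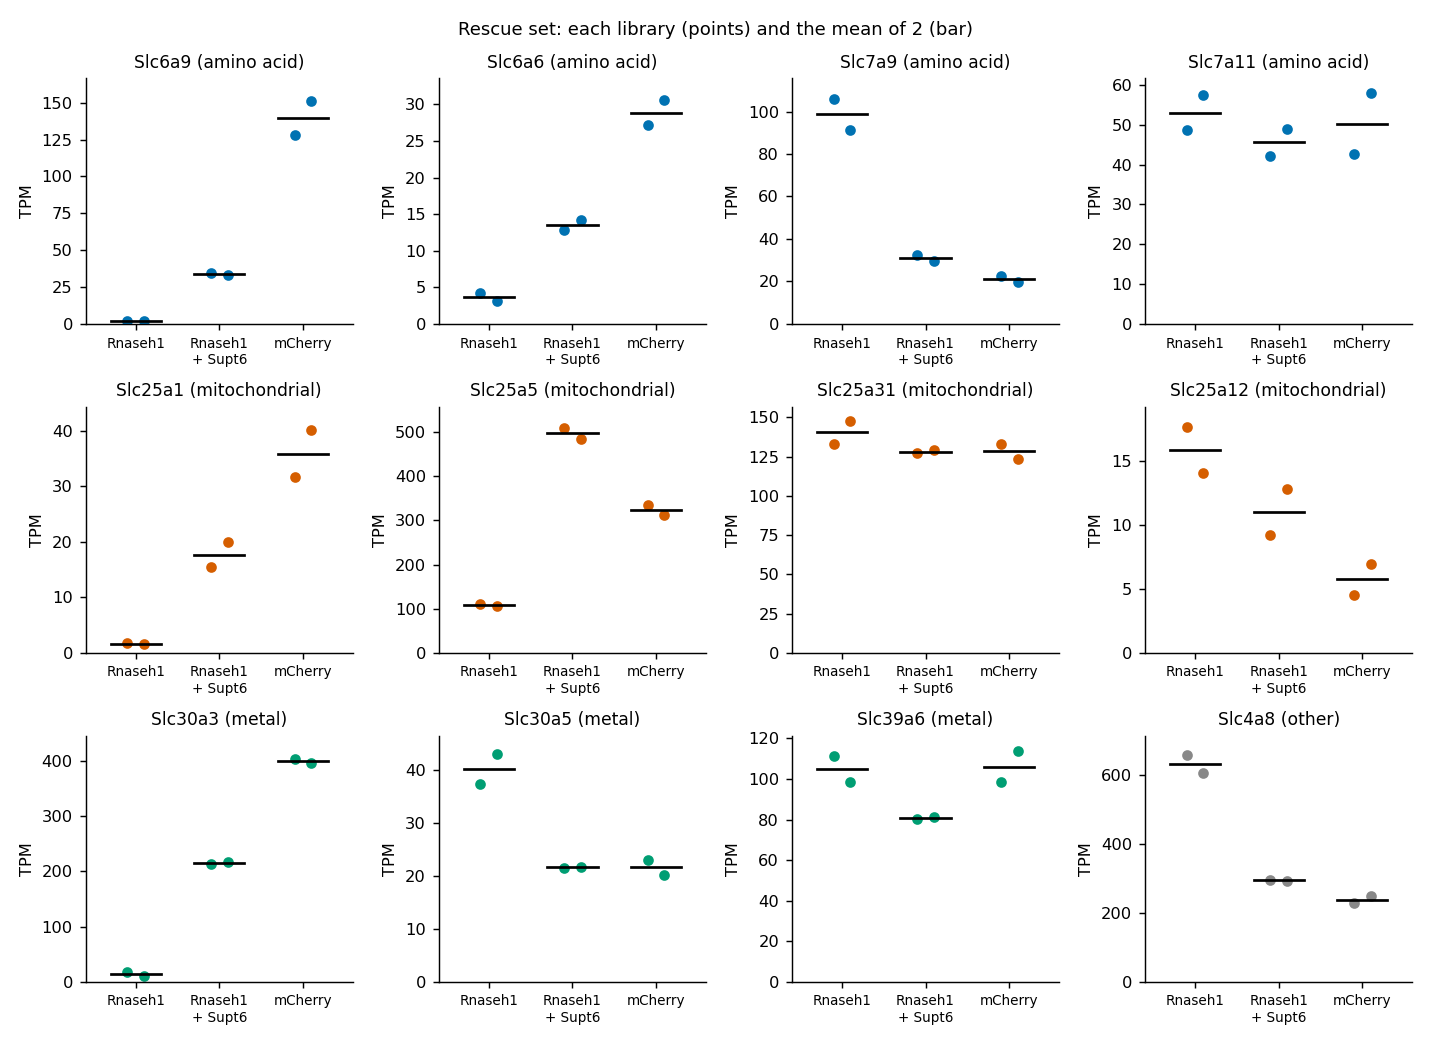
TPM (vertical axis, from 0) of 12 carriers in the 6 rescue libraries, by group, with a point for each library and a bar for the mean of 2. Slc6a9, Slc6a6, Slc25a1, Slc25a5 and Slc30a3 are lowest with Rnaseh1, Slc7a9, Slc25a12, Slc30a5 and Slc4a8 are highest with Rnaseh1, and Slc7a11, Slc25a31 and Slc39a6 overlap between Rnaseh1 and mCherry.

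Mitochondrial carriers fell in 21 of 32 cases (65.6%) and rose in 3 (9.38%), with a median of −1.18. Median centring and quantile normalization each gave 17 falls and 7 rises, and GC correction 13 falls and 5 rises. Slc25a1, the citrate carrier (ENSMUSG00000003528.15, chromosome 16, 17925223 to 17928219), had 1.72 and 1.64 TPM with Rnaseh1, 15.5 and 19.9 TPM with Rnaseh1 plus Supt6, and 31.6 and 40.2 TPM with mCherry. Its 3 groups did not overlap and it fell by 3.77 ± 0.21 with Rnaseh1 (adjusted p = 6.5e-06). Other falls beyond 2 on the log2 scale included those of Slc25a35 (−3.12), the glutamate carrier Slc25a22 (−3.07), the glycine carrier Slc25a38 (−2.88) and the NAD carrier Slc25a51 (−2.85). The glutathione carrier Slc25a39, the oxoglutarate carrier Slc25a11, the carnitine carrier Slc25a20 and the dicarboxylate carrier Slc25a10 fell by 1.91, 1.69, 1.37 and 1.26.

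The ADP/ATP carriers, which exchange cytosolic ADP for matrix ATP, did not move together. Slc25a5, the highest carrier of the class with mCherry and with Rnaseh1 plus Supt6, had 110.2 and 106.5 TPM with Rnaseh1, 509.7 and 484.8 TPM with Rnaseh1 plus Supt6, and 334 and 313 TPM with mCherry. It fell by 1.57 ± 0.08 (adjusted p = 4.4e-06), and Slc25a4 fell by 1.58 ± 0.16 (adjusted p = 0.00012). Slc25a31, the form known from germ cells, had 133.3 and 147.8 TPM with Rnaseh1, 127 and 129 TPM with Rnaseh1 plus Supt6, and 133.3 and 123.9 TPM with mCherry. Its groups overlapped, and 0.13 ± 0.10 did not pass (adjusted p = 0.28); median centring gave 0.71, quantile normalization 0.30 and GC correction −0.31, all past the threshold. Slc25a5 has processed copies elsewhere in the genome, so reads may be divided wrongly. The phosphate carrier Slc25a3 fell by 0.62 ± 0.21 (adjusted p = 0.036), although its Rnaseh1 libraries were apart at 38.8 and 63.4 TPM, against 78.8 and 74.7 TPM with mCherry.

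The 3 mitochondrial-class genes that rose were Slc25a12, Slc25a17 and Slc25a16. Slc25a12, an aspartate/glutamate carrier, had 17.6 and 14.0 TPM with Rnaseh1 and 4.54 and 6.94 TPM with mCherry (1.33 ± 0.26, adjusted p = 0.0033). Its paralog Slc25a13 fell by 1.37 ± 0.22, at 8.75 and 5.61 TPM with Rnaseh1 and 20.2 and 19.2 TPM with mCherry. Slc25a17, which carries coenzyme A into peroxisomes and so is not a mitochondrial protein, rose by 0.59 ± 0.08 (adjusted p = 0.00063), at 272 and 299 TPM with Rnaseh1 against 191 and 186 TPM with mCherry.

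Metal carriers fell in 8 of 15 cases (53.3%) and rose in 3 (20%), with a median of −1.09. These shares were near the 46.2% and 20.3% of all genes. Median centring gave 5 falls and 5 rises, quantile normalization 4 and 4, and GC correction 4 and 3, with a class median of 0.03 in the last. Without mCherry replicate 1, 5 fell and 1 rose. Slc30a3, the zinc exporter known from synaptic vesicles (ENSMUSG00000029151.14, chromosome 5, 31086106 to 31108237), had 17.2 and 10.7 TPM with Rnaseh1, 213 and 217 TPM with Rnaseh1 plus Supt6, and 404 and 397 TPM with mCherry. It was the highest metal carrier with mCherry, its 3 groups did not overlap, and it fell by 4.78 ± 0.19 with Rnaseh1 (adjusted p = 1.8e-06). Slc30a2 had 2.14 and 0.79 TPM with Rnaseh1, against 14.4 and 12.9 TPM with mCherry. It fell by 2.63 ± 0.29 (adjusted p = 0.00019).

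The 3 metal carriers that rose were also Slc30 members. Slc30a5, a zinc carrier of the secretory pathway, had 37.3 and 43.0 TPM with Rnaseh1, 21.5 and 21.7 TPM with Rnaseh1 plus Supt6, and 22.9 and 20.2 TPM with mCherry (0.87 ± 0.14, adjusted p = 0.0014). Slc30a1, the zinc exporter of the cell surface, had 5.93 and 4.85 TPM with Rnaseh1 and 2.73 and 2.55 TPM with mCherry (0.81 ± 0.23, adjusted p = 0.017). Its adjusted p was 0.056 without mCherry replicate 1 and 0.073 without mCherry replicate 2. Slc30a4 gave 0.80 ± 0.24 (adjusted p = 0.022). Its adjusted p was 0.12 without mCherry replicate 1, 0.053 without Rnaseh1 replicate 2 and 0.11 after GC correction.

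Of the zinc importers, 5 of 7 fell and none rose, with a median of −1.09, which became 0.03 after GC correction with 1 fall and 1 rise. Median centring gave 3 falls and 1 rise, and quantile normalization 2 and 0. Slc39a10 had 39.5 and 37.8 TPM with Rnaseh1, 75.8 and 94.4 TPM with Rnaseh1 plus Supt6, and 55.9 and 108.4 TPM with mCherry. Its fall of 0.99 ± 0.28 (adjusted p = 0.017) came from mCherry libraries that were far apart, and was −1.46 without mCherry replicate 1 and −0.52 without replicate 2. Its adjusted p was 0.052 without Rnaseh1 replicate 2, 0.22 after median centring and 0.16 after quantile normalization. Slc39a6 had 111.5 and 98.4 TPM with Rnaseh1, 80.1 and 81.2 TPM with Rnaseh1 plus Supt6, and 98.6 and 113.7 TPM with mCherry. Rnaseh1 and mCherry overlapped and −0.02 ± 0.11 did not pass (adjusted p = 0.92), while median centring gave 0.57 and GC correction 0.75, past the threshold. Slc39a7, an importer of the endoplasmic reticulum, fell by 2.09 ± 0.44 (adjusted p = 0.0044), at 2.93 and 0.87 TPM with Rnaseh1 against 14.9 and 7.32 TPM with mCherry.

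The other carriers held 76 falls (58.9%) and 10 rises (7.75%) in 129, with a median of −0.96. Slc45a3 (ENSMUSG00000026435.15, chromosome 1, 131962967 to 131982969), the highest carrier of all with mCherry, had 103.4 and 88.2 TPM with Rnaseh1, 192 and 194 TPM with Rnaseh1 plus Supt6, and 749 and 808 TPM with mCherry. It fell by 3.01 ± 0.10 (adjusted p = 9.8e-07). Carriers of nucleotide sugars and their relatives (Slc35) fell in 12 of 18 cases and rose in 0, and gave 7 or 8 falls and 1 to 3 rises in the other scalings. Slc35c2, Slc35f6 and Slc35a4 fell by 3.70, 3.62 and 3.77, and the GDP-fucose carrier Slc35c1 by 2.64. The glucose carrier Slc2a1 had 2.15 and 3.97 TPM with Rnaseh1, against 31.1 and 31.8 TPM with mCherry (−3.04 ± 0.24, adjusted p = 3.3e-05).

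Further falls, picked after their values were seen, were those of the reduced folate carrier Slc19a1 (−3.25), the riboflavin carrier Slc52a2 (−2.89), the heme carrier Slc48a1 (−3.29) and the iron carrier Slc11a2 (−2.48). The sodium bicarbonate carriers were divided. Slc4a5 fell by 3.76 ± 0.19, at 1.99 and 2.61 TPM with Rnaseh1 against 41.9 and 45.0 TPM with mCherry. Slc4a8, the sodium-driven chloride/bicarbonate exchanger (ENSMUSG00000023032.12, chromosome 15, 100761747 to 100823968), had 658 and 608 TPM with Rnaseh1, 296 and 293 TPM with Rnaseh1 plus Supt6, and 228 and 249 TPM with mCherry. The 3 groups did not overlap, and it rose by 1.40 ± 0.08 (adjusted p = 8.2e-06). Potassium/chloride carriers were divided too: Slc12a7 fell by 3.23 and Slc12a5 rose by 0.97. Slc51a, a subunit of the organic solute transporter, had 5.75 and 4.61 TPM with Rnaseh1, 0.37 and 0.50 TPM with Rnaseh1 plus Supt6, and 0.61 and 0 TPM with mCherry. It entered the test only through the Rnaseh1 libraries, where it was high, and is counted among the rises of the other carriers.

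With Supt6 added to Rnaseh1, carriers lay closer to mCherry. Of 204 carriers, 32 fell and 7 rose against mCherry, where 7.6% of all genes fell and 5.71% rose, and the median log2 fold change was −0.20 for carriers and −0.04 for all genes. This count was not stable: 2 fell and 1 rose without Rnaseh1 plus Supt6 replicate 1, 2 fell and 0 rose without its replicate 2, 5 fell and 1 rose without mCherry replicate 1, and 2 fell and 0 rose without mCherry replicate 2. Of all genes, 0.418 to 1.27% fell and 0.252 to 1.29% rose in those fits. Slc45a3 and Slc6a9 passed in each of those 4 fits. Slc45a3 lay at −2.01 ± 0.10 (adjusted p = 0.00096) and Slc6a9 at −2.0 ± 0.15 (adjusted p = 0.0023). Amino acid carriers gave 7 falls and 1 rise, mitochondrial carriers 6 and 3, and metal carriers 2 and 1. The metal rise, also counted in the 7 of all carriers, was Slc30a9. That gene entered the test only through the Rnaseh1 plus Supt6 libraries, where it was high, so its call is no evidence. After GC correction 16 carriers fell (7.84%) and 8 rose (3.92%), beside 3.91% and 6.84% of all genes.

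Some carriers passed mCherry on the other side. Slc25a5 lay 0.62 ± 0.08 above mCherry with Rnaseh1 plus Supt6 (adjusted p = 0.0067), having been lowest with Rnaseh1 alone. It passed without mCherry replicate 1 (0.041), and its adjusted p was 0.061 to 0.084 without each of the other 3 libraries. Slc30a9 had 6.89 and 5.07 TPM with Rnaseh1 plus Supt6, against 0.99 and 2.16 TPM with Rnaseh1 and 0.71 and 0.67 TPM with mCherry. Its log2 fold change against mCherry was 2.03 ± 0.31. Slc30a9 entered the test only through the Rnaseh1 plus Supt6 libraries, where it was high, so its p-value is not given. The glutamate carrier Slc25a22, at 1.49 and 1.84 TPM with Rnaseh1 plus Supt6 against 7.34 and 10.1 TPM with mCherry, fell by 1.86 ± 0.27 (adjusted p = 0.0092). Without mCherry replicate 1 it still passed (0.045), and without each of the other 3 libraries its adjusted p was 0.077 to 0.093.

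Set against Rnaseh1 alone, 105 carriers rose and 14 fell with Supt6, where 41.6% of all genes rose and 17.4% fell, with a median of 0.75 for carriers and 0.44 for all genes. Median centring gave 63 rises and 28 falls, beside 26.2% and 30% of all genes. Quantile normalization gave 65 and 28, beside 27.0% and 29.1%, and GC correction 57 and 30, beside 25.3% and 24.8%. There were 8 falls without Rnaseh1 replicate 1, and 8 also without either Rnaseh1 plus Supt6 library. This comparison shares the Rnaseh1 libraries with the first and the Supt6 libraries with the second, so likeness among the 3 is no separate evidence and each is given by its own values. Amino acid carriers rose in 16 cases and fell in 2, mitochondrial carriers in 17 and 1, and metal carriers in 5 and 4. Slc30a9 was among the metal rises, with the limit given above. The falls of the metal class were Slc30a5 (−0.86 ± 0.14), Slc30a4 (−0.71 ± 0.24), Slc30a1 (−0.68 ± 0.23) and Slc39a6 (−0.37 ± 0.11). The metal falls numbered 1 without Rnaseh1 replicate 1 and 1 without either Rnaseh1 plus Supt6 library, and the metal rises numbered 3 without Rnaseh1 plus Supt6 replicate 2. Slc30a3 rose by 3.88 ± 0.19 (adjusted p = 6e-06), Slc6a9 by 3.62 ± 0.15 (adjusted p = 3.2e-06) and Slc25a35 by 3.11 ± 0.35 (adjusted p = 0.00024). Slc7a14 and Slc7a9 fell by 1.73 and 1.63, and Slc4a8 by 1.10.

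The change of a carrier followed the base composition of its transcripts. Across the 204 carriers, Spearman's rho between transcript GC content and the log2 fold change with Rnaseh1 against mCherry was −0.56, and across 12603 genes it was −0.53. Genes of a library share its amplification and composition and are not independent replicates. Carriers that fell had a median GC content of 54.0% and those that rose 49.4%, while all tested carriers had 51.7% and all tested genes 49.3%. With genes ranked by GC content into 5 bins, the lowest bin (28.1 to 44.3%) held 27 carriers, of which 5 fell, or 18.5%, beside 15.4% of all genes. In the highest bin (54.9 to 69.5%), 51 of 57 carriers fell, or 89.5%, beside 76.2% of all genes. The carriers' median lay below that of all genes in each bin, by the least in the third (−0.74 for carriers, −0.55 for all genes). The part of base composition in the falls was not tested.

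**Figure D3:**
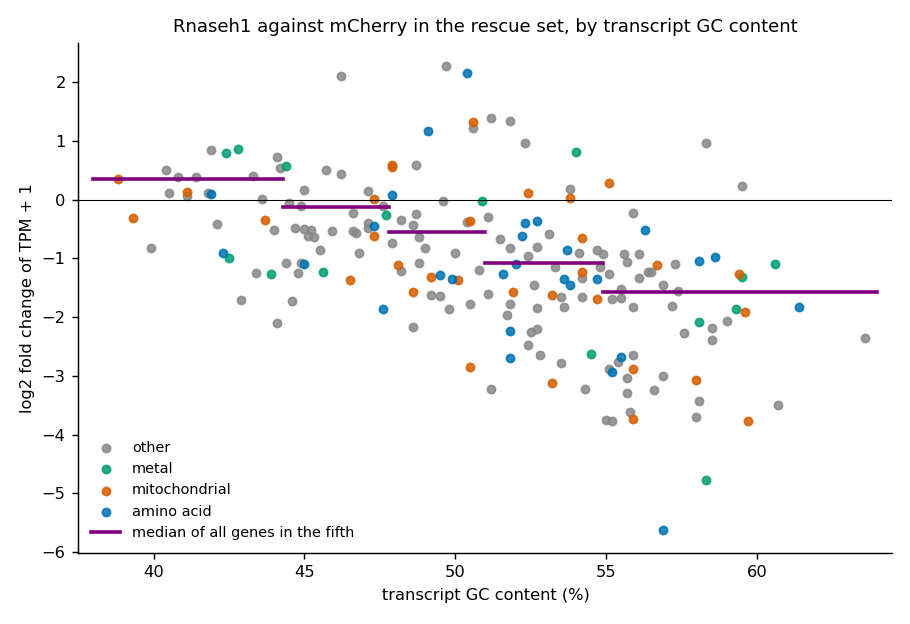
Log2 fold change of TPM + 1 with Rnaseh1 against mCherry in the rescue set (vertical axis) against the median GC content of a gene's transcripts in percent (horizontal axis), a point per carrier coloured by class. Purple lines are the medians of all genes in each of 5 bins of GC content, from 0.35 in the lowest to −1.58 in the highest; Slc6a9 and Slc30a3 lie far below the line of their bin.

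The composition of the upstream sequence showed no such relation. RefSeq gave the 250 bases before the start for 175 of the 210 carriers, and 169 of them were tested in the rescue set. The rho with the same log2 fold change was −0.02 for GC content, −0.02 for the number of CpG dinucleotides and −0.09 for GC skew. These carriers had a median of 13 CpG in the window, against 6 over 27025 genes. The 27025 genes were not filtered for level and each gave its first listed start. The carriers had to reach 1 TPM and gave the start nearest to the GENCODE start. These medians, and the shares of all windows below, therefore compare unlike sets and do not set carriers apart from other expressed genes. A GC box stood in 55.4% of carriers and 32.9% of all windows: in 58 of 102 that fell, 9 of 18 that rose and 26 of 49 not called. The metal response element core stood in 30.3% of carriers and 21.3% of all windows. It was found in 37 of the 102 that fell, 5 of the 18 that rose and 7 of the 49 not called, and both Slc30a3 and Slc30a1, printed above, hold 1 copy. The amino acid response element core stood in 6 of the 175 carriers (3.43%) and 3.53% of all windows, and Slc7a11 held 2 copies. These matches are letters in a short window, not measured binding.

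Genes that work with the carriers were also read from lists, whose counts stand beside the 46.2% of all genes that fell and 20.3% that rose. Of 5 tested genes of the amino acid response, 4 fell and 0 rose with Rnaseh1 against mCherry in the rescue set, with a median of −1.23. Atf4, its transcription factor, averaged 16.04 ± 1.07 TPM with Rnaseh1 and 98.4 ± 3.30 TPM with mCherry (SD, n = 2 each). Against Rnaseh1 alone, Supt6 gave 4 rises and 0 falls in this list, beside 41.6% and 17.4% of all genes in that comparison. Of 21 genes of amino acid sensing by mTORC1, 10 fell and 3 rose, with Lamtor1 at −5.27 ± 0.22 but Lamtor2 and Lamtor5, of the same lysosomal scaffold, at 1.12 and 1.06. Of 17 mitochondrial transport genes outside Slc25, 8 fell and 7 rose, with a median of −0.42 beside −0.52 for all genes. The outer membrane channels differed, since Vdac1 fell by 2.17 while Vdac2 rose by 1.62. Of 10 metal handling genes, 4 fell and 3 rose, with a median of −0.54, a split near that of all genes. Named examples were the zinc-sensing factor Mtf1 at 0.37 ± 0.10 and ferritin light chain Ftl1 at −2.64 ± 0.20. Of 4 carrier subunits and chaperones, 3 fell and 0 rose, led by basigin (Bsg, −3.18 ± 0.19), which takes monocarboxylate carriers to the cell surface. These genes outside the carriers were picked as examples after their values were seen.

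In the NSN and SN set, with 186 carriers tested, none passed the adjusted threshold in any of 5 comparisons (limma), and 0% of the 12736 genes did. The overexpressed Rnaseh1 itself did not pass. It averaged 1222 ± 196 TPM with SN Rnaseh1 and 106 ± 35.4 TPM with SN mCherry (3.55 ± 0.57, adjusted p = 0.41). In NSN oocytes it averaged 487 ± 365 TPM with Rnaseh1 and 122 ± 20.5 TPM with mCherry (1.76 ± 0.57, adjusted p = 0.76). The lack of calls therefore does not show that carriers were unchanged. The SN comparison of Rnaseh1 with mCherry had 2 carriers higher and 5 lower at an unadjusted p under 0.05, where 6.74% of all genes reached that level. The choline carrier Slc44a1 was the higher one with the smaller p, at 48.5 and 57.7 TPM with SN Rnaseh1 against 28.5 and 13.9 TPM with SN mCherry (1.36 ± 0.43, adjusted p = 0.61). Slc30a9, among the 5 lower ones, was at 0.68 and 1.01 TPM with SN Rnaseh1 against 15.6 and 4.02 TPM with SN mCherry (−2.31 ± 0.73, adjusted p = 0.61). In NSN oocytes 2 carriers were higher and 2 lower at that level, where 2.77% of all genes were. Slc35a2, the UDP-galactose carrier, had 2.59 and 2.98 TPM with NSN Rnaseh1 against 10.4 and 7.57 TPM with NSN mCherry (−1.38 ± 0.42, adjusted p = 0.76). Without NSN Rnaseh1 replicate 1, 8 of 181 carriers fell and 1 rose in NSN oocytes, beside 8.44% and 0.794% of all genes. The test of whether the effect of Rnaseh1 differed between SN and NSN oocytes gave 2 higher and 1 lower carrier at an unadjusted p under 0.05, beside 2.26% of all genes.

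Between stages no carrier passed the adjusted threshold. With mCherry, SN against NSN gave 3 higher and 2 lower carriers at an unadjusted p under 0.05, beside 2.58% of all genes. The mitochondrial carrier Slc25a36 had 2.25 and 1.28 TPM in SN mCherry against 5.13 and 8.78 TPM in NSN mCherry (−1.51 ± 0.52, adjusted p = 1.0). With Rnaseh1 the same stage comparison gave 4 higher and 3 lower, beside 4.59% of all genes. Slc35g2 had the smallest p, at 4.0 and 2.98 TPM in SN Rnaseh1 against 0.62 and 0 TPM in NSN Rnaseh1 (1.81 ± 0.44, adjusted p = 0.85). Without NSN Rnaseh1 replicate 1, 1 carrier rose in that comparison, beside 0.858% of all genes.

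**Figure D4:**
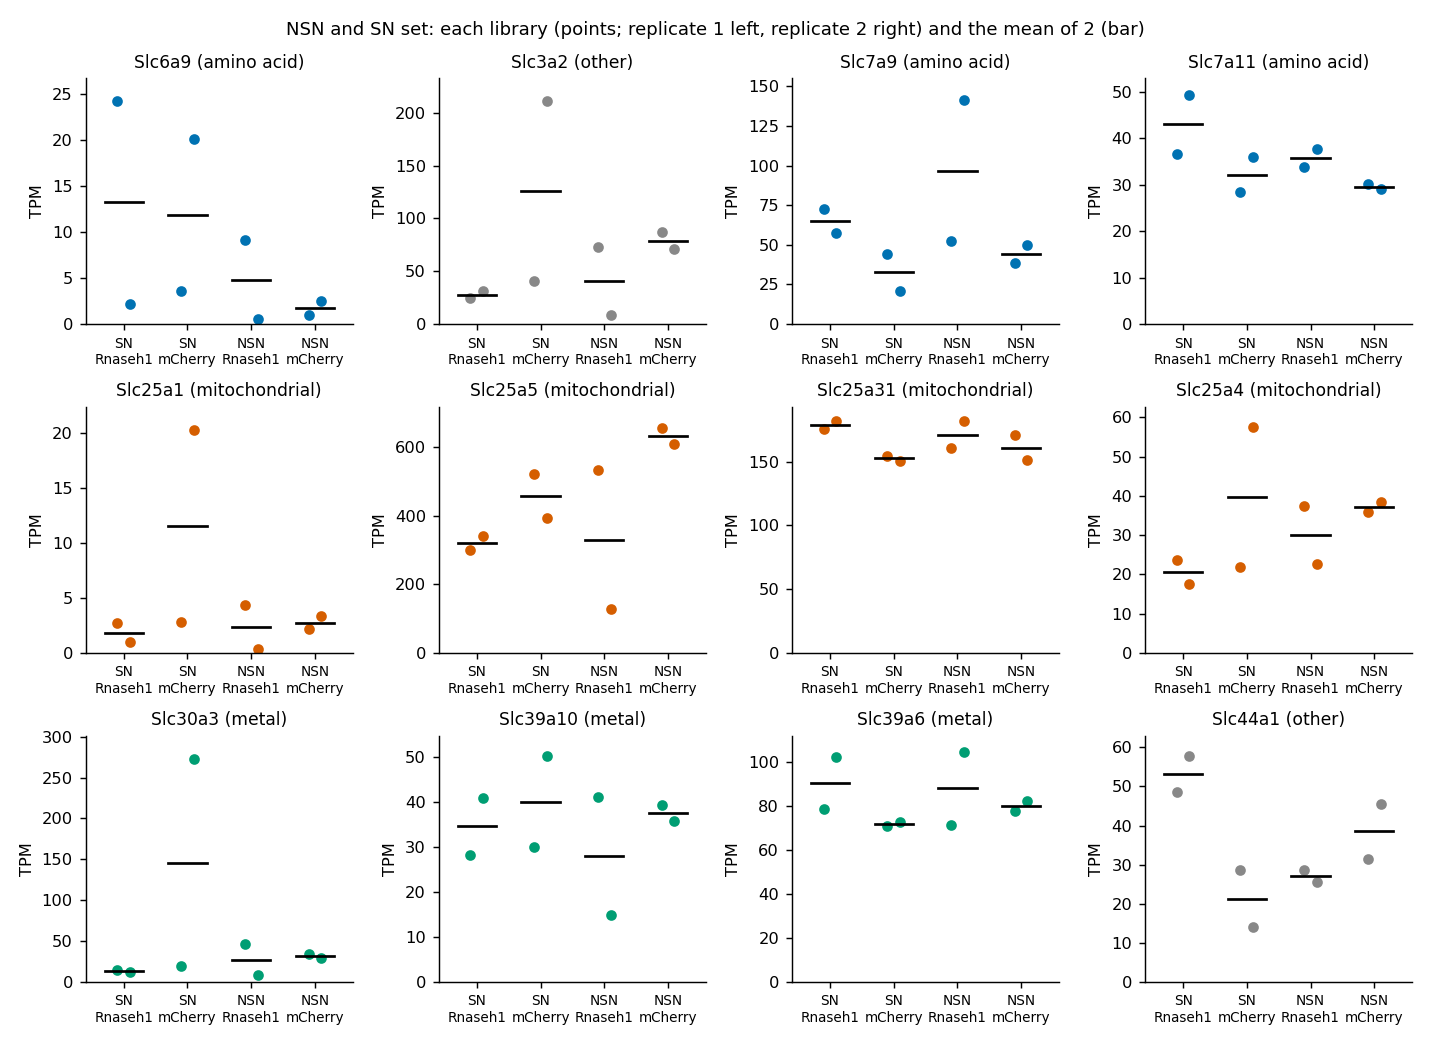
TPM (vertical axis, from 0) of 12 carriers in the 8 libraries of the NSN and SN set, by group, with a point for each library and a bar for the mean of 2. SN mCherry replicate 2 stands far above replicate 1 for Slc6a9, Slc3a2, Slc25a1, Slc25a4 and Slc30a3, and NSN Rnaseh1 replicate 2 far below replicate 1 for Slc3a2, Slc25a5 and Slc30a3.

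The libraries of the SN mCherry group disagreed for carriers that fell with Rnaseh1 in the rescue set. This disagreement was not limited to carriers. Over all genes too, the SD of the replicate difference was larger in SN mCherry and NSN Rnaseh1 than in the other groups of the first set. Slc30a3 had 14.5 and 11.6 TPM with SN Rnaseh1, against 18.8 and 273 TPM with SN mCherry, and 45.9 and 7.66 TPM with NSN Rnaseh1, against 34.0 and 28.5 TPM with NSN mCherry. Slc3a2 had 24.5 and 30.8 TPM with SN Rnaseh1, against 40.7 and 211 TPM with SN mCherry, and 72.6 and 8.41 TPM with NSN Rnaseh1, against 87.5 and 70.5 TPM with NSN mCherry. In all, 62 of 186 carriers were higher by at least 1 on the log2 scale in SN mCherry replicate 2 than in replicate 1, and 11 lower by as much. Across the 180 carriers tested in both sets, this replicate difference had a rho of −0.80 with the rescue change of Rnaseh1 against mCherry. The difference between the NSN Rnaseh1 libraries had a rho of 0.51, and those of NSN mCherry and SN Rnaseh1 0.17 and 0.02. The count of 62 and these rho values cover carriers only, with no value for all genes beside them. No library is shared between the sets. The replicate difference of SN mCherry also followed transcript GC content, with a rho of 0.46 across 186 carriers.

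**Figure D5:**
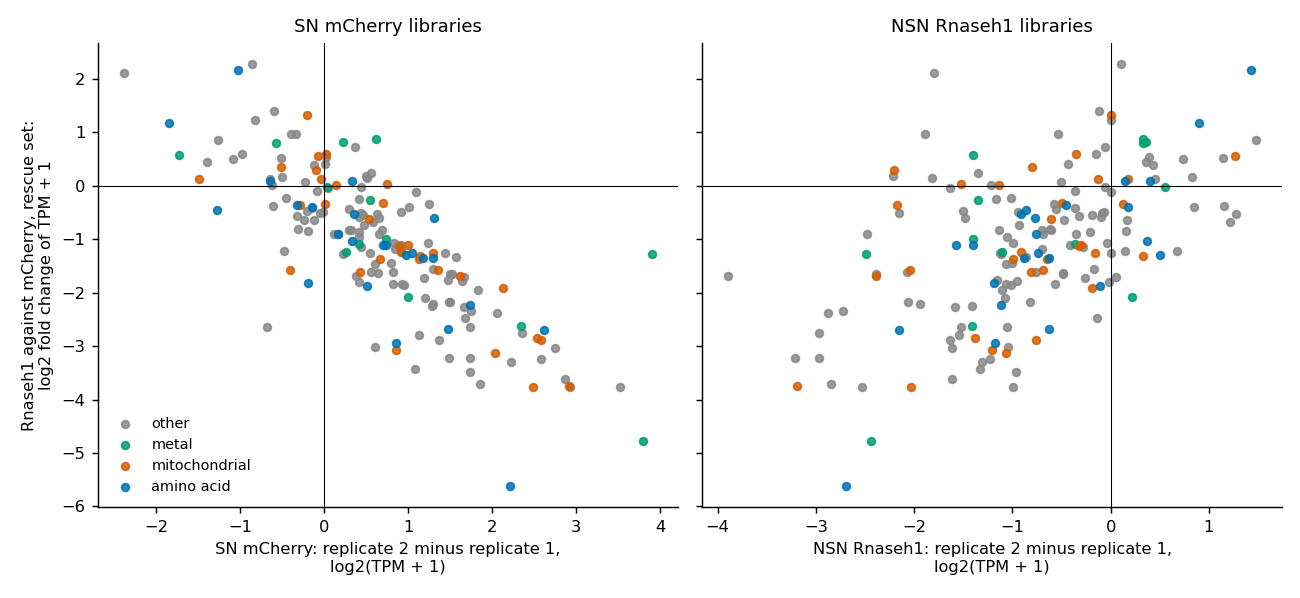
Log2 fold change of TPM + 1 with Rnaseh1 against mCherry in the rescue set (vertical axis) against replicate 2 minus replicate 1 in log2(TPM + 1) for the SN mCherry libraries (left) and the NSN Rnaseh1 libraries (right), a point per carrier coloured by class. Carriers that fell in the rescue set lie to the right in the left panel (rho −0.80) and to the left in the right panel (rho 0.51).

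Of 106 carriers that fell in the rescue set and were tested in the first, 95 had a negative log2 fold change with Rnaseh1 against mCherry in SN oocytes, with a median of −0.71, and 94 in NSN oocytes, with a median of −0.47. The median over all genes was −0.22 in SN and −0.29 in NSN oocytes. Of all 12736 genes, 7785 were negative and 4910 positive in SN oocytes, and 8676 and 4029 in NSN oocytes. These values are not limited to genes that fell in the rescue set, for which none are given. Whether the carriers differ here from other genes that fell was not tested. Of 17 that rose in the rescue set, 13 were positive in SN and 11 in NSN oocytes. Across 180 carriers the rho of the SN change with the rescue change was 0.65, and that of the NSN change 0.32. Both rested on the libraries that stood apart. Without SN mCherry replicate 2 the SN rho was 0.18 and the median of the carriers −0.13, and without replicate 1 they were 0.78 and −0.63. Without NSN Rnaseh1 replicate 2 the NSN rho was −0.14 and the median 0.04, and without replicate 1 they were 0.48 and −0.79.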

How the data were processed

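The deposited values are TPM per gene and library, made by the authors; STAR 2.7.0d, RSEM 1.3.3, Trim Galore 0.6.7, mm10 and DESeq2 are named without roles, per the submitters' processing notes. Libraries were made from amplified cDNA, per the labels' protocols. Gene identifiers were paired with symbols, 35319 of them, and GENCODE M21 (GRCm38) gave positions and transcript GC content. The 4 carrier symbols of the rescue table without a partner were not used. Each table was fitted separately with limma 3.58.1 in R 4.3.3 (lmFit, contrasts.fit, eBayes with trend) on log2(TPM + 1), with all groups sharing 1 spread, over genes that reached 1 TPM in 2 or more libraries. This scale understates changes of low genes. Calls needed a Benjamini-Hochberg adjusted p under 0.05 over all genes. The fit was tested on simulated data. Named carriers were those of fixed roles, the highest of each class, and up to 4 per class and direction with the largest change among calls with non-overlapping libraries and a mean of at least 5 TPM; others were picked after their values were seen. Members and lists were chosen with earlier results of these data known. Alternatives were other pseudocounts, filters and scalings, removal of the GC trend, a replicate block and leaving out each library. Some carriers are not reported here.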

Additional observations from a re-analysis of the deposited data

How the results depend on the processing

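Of 426 recomputed counts of called carriers, 325 stayed within 1.5 times the reported count. The 426 include counts of the NSN and SN comparisons, where no carrier passed in the reported fit, so the share overstates how stable the rescue counts were. Of 2053 recomputed values for named carriers, 1879 kept their direction and side of the threshold, 146 no longer passed, 11 newly passed and 17 reversed. The causes were not tested. Many counts below stand without the share of all genes in the same fit. Such counts show only how the number of called carriers moved, not how carriers compared with all genes. TPM keeps no depth, so what depth limits cannot be given.

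With Rnaseh1 against mCherry in the rescue set, removal of the GC trend gave 71 falls, with 5 rises and 10 falls among amino acid, 5 and 13 among mitochondrial, and 4 falls among metal carriers. Median centring gave 36 rises, with 7 mitochondrial rises and 5 rises and 5 falls among metal carriers. Quantile normalization gave 37 rises, with 12 amino acid falls, 7 mitochondrial rises and 4 metal falls. A filter of 5 TPM gave 12 amino acid and 4 metal falls. With 1 library left out, rises ranged from 11 to 18 and falls from 100 to 122. The ranges were 2 to 2 and 15 to 20 for amino acid, 2 to 3 and 17 to 20 for mitochondrial, and 1 to 4 and 5 to 8 for metal carriers.

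With Rnaseh1 plus Supt6 against mCherry, testing with no filter gave 4 rises and 17 falls, with 0 rises and 4 falls among amino acid, 3 falls among mitochondrial and 1 fall among metal carriers. Removal of the GC trend gave 16 falls, of which 3 were amino acid, 3 mitochondrial and 1 metal. Amino acid rises were 0 with a pseudocount of 0.1, and 2 with a pseudocount of 5, a filter of 5 TPM, median centring or quantile normalization. With 1 library left out, rises ranged from 0 to 1 and falls from 2 to 5. By class these were 0 and 1 for amino acid, 0 to 1 and 0 to 2 for mitochondrial, and 0 and 0 for metal carriers.

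With Rnaseh1 plus Supt6 against Rnaseh1, removal of the GC trend gave 57 rises and 30 falls, with 7 and 7 among amino acid and 11 and 5 among mitochondrial carriers. Median centring gave 63 and 28, with 10 amino acid rises, 5 mitochondrial falls and 3 metal rises, and quantile normalization 65 and 28, with 10, 4 and 3. With no filter 9 fell, of which 0 were mitochondrial and 2 metal, and a filter of 5 TPM gave 10 amino acid rises. With 1 library left out, rises ranged from 76 to 102 and falls from 8 to 10. By class these were 12 to 14 and 2 for amino acid, 14 to 19 and 0 to 1 for mitochondrial, and 3 to 6 and 1 to 3 for metal carriers.

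In the NSN and SN set, leaving out 1 library gave 0 to 1 rises and 0 to 8 falls for Rnaseh1 against mCherry in NSN oocytes, 0 to 1 rises for SN against NSN with Rnaseh1, and 0 elsewhere. With SN mCherry replicate 2 and NSN Rnaseh1 replicate 2 both left out, a choice made after seeing the data, 2 carriers fell in SN against NSN with Rnaseh1, beside 2.3% of all genes.

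Correlations of same-numbered deviations between groups ran from −0.514 to 0.169 in the first set and −0.000481 to 0.0384 in the rescue set. The −0.514 was between NSN Rnaseh1 and SN mCherry, the groups whose libraries stand apart. Such values cannot show whether libraries with the same replicate number share animals or days, which the labels do not give. A replicate block left 17 rises and 124 falls with Rnaseh1 against mCherry, 6 and 30 with Rnaseh1 plus Supt6 against mCherry, and 99 and 12 against Rnaseh1, with 0 mitochondrial falls in the last.

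Reversed values were few. The Slc30a3 difference between SN and NSN effects ranged from −3.62 without SN mCherry replicate 1 to 0.17 without its replicate 2. With Rnaseh1 against mCherry in the rescue set, removal of the GC trend gave 0.38 for Slc7a6, 0.75 for Slc39a6, −0.28 for Slc7a11, −0.31 for Slc25a31, 0.36 for Slc25a26 and 0.18 for Slc4a1ap. Median centring gave 0.57 for Slc39a6, 0.23 for Slc25a26 and 0.48 for Slc4a1ap, and quantile normalization 0.26, 0.2 and 0.07. With 1 library left out, Slc39a6 ranged from −0.12 without mCherry replicate 1 to 0.09 without mCherry replicate 2, with 0.07 without Rnaseh1 replicate 2. Slc7a11 ranged from −0.13 without mCherry replicate 1 to 0.30 without mCherry replicate 2, with −0.03 without Rnaseh1 replicate 2.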
